A study of Mus musculus with 12 samples.

Results

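In whole back skin of mice on the FVB background, 215 transcripts had a lower level in every library from skin exposed to 7,12-dimethylbenz[a]anthracene (DMBA) than in any library from untreated wild type skin, and they did so with and without αβ T cells. They were chosen by their measured levels. The level of a transcript was its CPM, its estimated reads scaled to a fixed total of estimated reads per library. Of 85565 transcripts listed, 30678 had a mean CPM of 0.5 or more over the 12 libraries and a value above 0 in each of the 4 groups. In 2496 of these (8.14%) the highest of the 9 DMBA libraries lay under the lowest of the 3 untreated libraries, and 247 of the 2496 also had an untreated mean at least 3 times the mean of each DMBA group. A last condition removed 32 in which all 6 Tcrb-/- libraries lay under all 6 wild type libraries, which left 215. The reverse choice, of transcripts higher in every DMBA group by the same amounts, gave 282.

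DMBA is a polycyclic aromatic hydrocarbon that skin cells convert to a reactive form that binds DNA, and it is the classic initiating carcinogen of mouse skin. Skin is a mixture of epidermis, hair follicles, glands, dermis, fat, vessels and immune cells. Tcrb-/- mice lack the T cell receptor β chain and so have no αβ T cells, which include the CD4+ regulatory T cells (Tregs) that restrain inflammation in skin.

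The study set 4 groups of 3 libraries side by side, all of the FVB background: untreated wild type (UT WT), wild type with DMBA (WT DMBA), Tcrb-/- with DMBA (Tcrb-/- DMBA), and Tcrb-/- that had received Tregs before DMBA (Tcrb-/- + Treg DMBA). The design text gives 200 ng of DMBA on the skin each week for 6 weeks, and Tregs taken as CD3+CD4+CD25+ cells from spleens of wild type donors and injected intravenously. The study's methods state the DMBA dose in another unit, with a higher first dose in the experiments with DMBA alone, and which dose these mice received was not settled here. The mice of the carcinogenesis experiments were age-matched females, shaved before DMBA in acetone. Whether the untreated mice were shaved or given acetone is not given in the sources used here, so DMBA, solvent and shaving cannot be told apart. No untreated Tcrb-/- skin was analysed here, so in both Tcrb-/- groups the fall was measured against untreated wild type skin and DMBA cannot be told apart from genotype. The Tcrb-/- libraries come from the constitutive knockout, and the Treg preparation was the source of αβ T cells in its recipients. The labels do not say that the libraries of a group come from separate mice, so a p-value here reflects the spread among libraries, which may be technical. The 3 WT DMBA libraries carry a treatment field that reads naive, and were grouped by their titles, which read DMBA.

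Each library held 17312566 to 31701620 estimated reads and 38277 to 44978 transcripts above 0. The identifiers are those of the FVB/NJ transcripts. Pairing them with gene symbols, positions and sequences was not possible with the tables used here, so 2 members are given by identifier and the others by length, and neither skin markers nor the deleted Tcrb gene were checked. Whole skin RNA does not tell fewer cells of a type from less RNA per cell.

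The 215 transcripts together took 5688, 6026 and 5167 CPM in the 3 UT WT libraries, or 0.517% to 0.603% of the reads. The sum was 1192, 696 and 1140 CPM in WT DMBA, 587, 825 and 619 CPM in Tcrb-/- DMBA and 512, 873 and 680 CPM in Tcrb-/- + Treg DMBA, or 0.0512% to 0.119% of the reads. The group means were 5627 ± 433, 1009 ± 272, 677 ± 129 and 688 ± 181 CPM (SD, n = 3). That all DMBA libraries lie under all untreated libraries is what the rule required. Among the DMBA libraries the groups overlapped: the second WT DMBA library lay under the highest library of both Tcrb-/- groups.

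The same held for the typical member. Each member was expressed as a percentage of its own UT WT mean, and the median over the 215 was 23.7%, 11.98% and 22.0% in the WT DMBA libraries. It was 9.34%, 14.0% and 10.1% in Tcrb-/- DMBA and 7.91%, 12.1% and 12.6% in Tcrb-/- + Treg DMBA, against 97.8% to 103.8% in UT WT. WT DMBA replicates 1 and 3 kept the most, and replicate 2 lay among the libraries of the Tcrb-/- groups. Leaving that library out of the choice reduced the members to 158, of which 145 were among the 215.

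**Figure D1:**
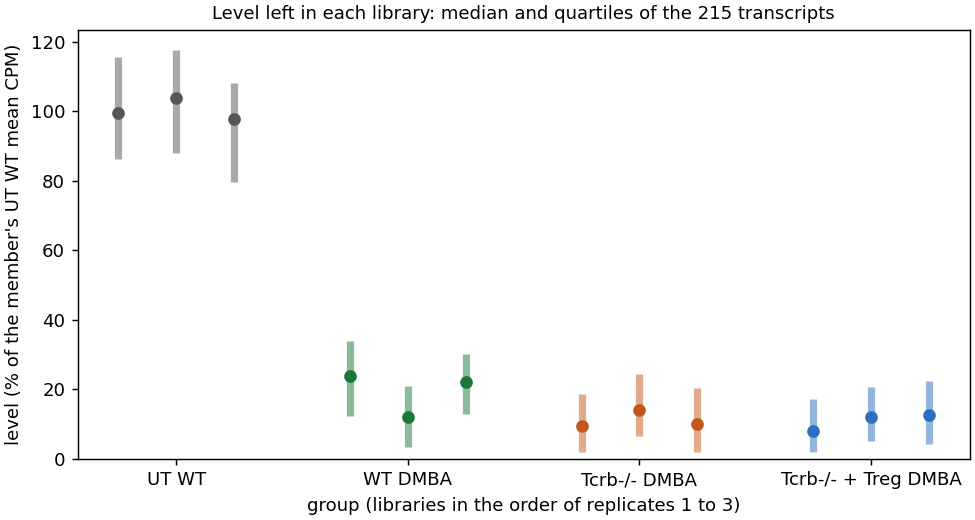
Level left in each library as a percentage of each transcript's UT WT mean CPM (vertical axis), for the 3 libraries of each group (horizontal axis). Points are medians over the 215 transcripts and bars run between the quartiles. The UT WT medians sit near 100%, those of 2 WT DMBA libraries at 22.0% and 23.7%, and the remaining 7 DMBA libraries between 7.91% and 14.0%.

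From group means, the median member kept 21.0% of its UT WT level in WT DMBA (quartiles 13.6% and 26.2%), 12.5% in Tcrb-/- DMBA (6.79% and 20.3%) and 12.5% in Tcrb-/- + Treg DMBA (6.41% and 18.5%). These correspond to median falls of 4.77-, 7.99- and 7.99-fold. WT DMBA held the highest of the 3 DMBA means in 145 members, Tcrb-/- DMBA in 33 and Tcrb-/- + Treg DMBA in 37. All of these values describe contrasts that the rule used, and the 3 contrasts share the UT WT libraries.

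The smallest fall of a member, its UT WT mean over the highest DMBA group mean, had a median of 4.30-fold (quartiles 3.58 and 5.69) and ran from 3.002 to 351. It was under 4-fold in 89 members, at least 5-fold in 75, at least 10-fold in 18 and at least 20-fold in 6. Just inside the minimum of 3 were transcripts of 2414, 1738 and 4120 nt, at 3.002-, 3.003- and 3.012-fold, and just outside it transcripts of 1164, 6168 and 1836 nt, at 2.996-, 2.994- and 2.984-fold.

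In UT WT the members had a median level of 6.40 TPM (a level corrected for length and scaled to a fixed total). Their range was 0.400 to 652 TPM, and the median over the 30678 transcripts kept was 5.39 TPM. A level of 10 TPM or more was reached by 87 members and 100 TPM or more by 10, and 19 lay under 1 TPM. By the rule, members passed the minimum mean CPM mostly through UT WT, while other transcripts could pass it through any group. The medians are thus of transcripts chosen in unlike ways. The median length was 2458 nt (309 to 12741), beside 2301 nt over the transcripts kept. Members with few reads and members with many both occurred among the deepest falls.

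**Figure D2:**
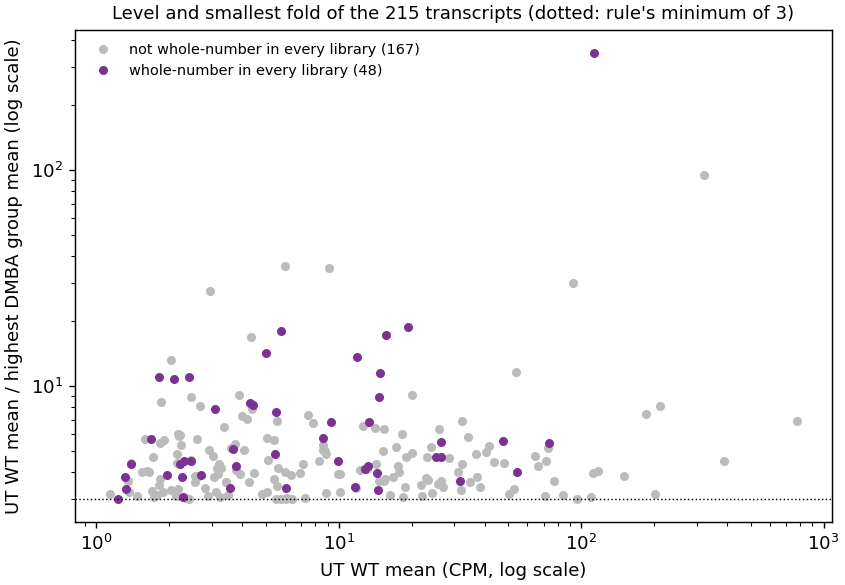
UT WT mean level in CPM (horizontal axis, log scale) against the UT WT mean over the highest DMBA group mean (vertical axis, log scale), 1 point per transcript, with the 48 whole-number transcripts in purple and the other 167 in grey. The points gather toward the dotted line at the rule's minimum of 3, with 89 under 4-fold and 2 above 50-fold.

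The single deepest fall was that of MGP_FVBNJ_T0082700.1, a 413 nt transcript with the highest level per length of all members in UT WT, 652 TPM. Its CPM was 97.7, 118 and 123 in UT WT. It was 0.385, 0.173 and 0.407 in WT DMBA, 0.0909, 0.148 and 0 in Tcrb-/- DMBA, and 0.173, 0.480 and 0 in Tcrb-/- + Treg DMBA. In reads, 2119, 3734 and 2711 in UT WT stood against 7, 3 and 9 in WT DMBA, 2, 3 and 0 in Tcrb-/- DMBA and 4, 12 and 0 in Tcrb-/- + Treg DMBA. The transcript was thus close to absent from all 9 DMBA libraries, and in the 2 libraries at 0 that count allowed up to 3 reads, or 0.132 and 0.146 CPM. The fall was 351-fold in WT DMBA. Between the groups with and without Tregs the log2 fold change was 1.56 with an SE of 0.95 (edgeR quasi-likelihood test, Benjamini-Hochberg adjusted p = 0.722 over 54539 transcripts), from the few reads just given. It was 0.31 without Treg replicate 2 and 2.26 without Tcrb-/- DMBA replicate 2.

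MGP_FVBNJ_T0082028.1, of 1932 nt, drew the most reads of all members. Its CPM was 844, 990 and 507 in UT WT, 131, 40.7 and 165 in WT DMBA, 20.9, 64.1 and 5.05 in Tcrb-/- DMBA, and 18.1, 111 and 21.1 in Tcrb-/- + Treg DMBA. The means were 780 ± 248, 112 ± 64.3, 30.03 ± 30.6 and 50.02 ± 52.7 CPM (SD, n = 3), so that the SD in the 2 Tcrb-/- groups was as large as the mean. The libraries of the 3 DMBA groups overlapped. The last condition of the rule left no member with all Tcrb-/- libraries under all WT DMBA libraries, so part of this overlap was fixed. The fall from UT WT was 6.94-, 26.0- and 15.6-fold in the 3 DMBA groups in that order. Between the groups with and without Tregs the log2 fold change was 0.82 with an SE of 0.88 (edgeR, Benjamini-Hochberg adjusted p = 0.936), and without the second library with Tregs it was -0.51. The direction of that difference rests on 1 library.

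**Figure D3:**
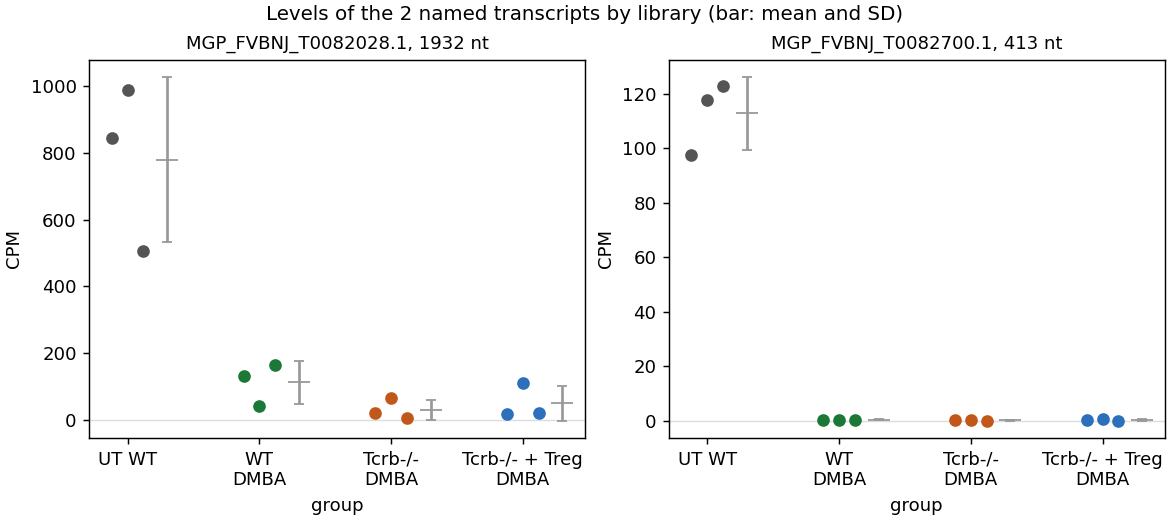
Level in CPM (vertical axes, linear scales) of the 2 transcripts named by identifier in the 4 groups (horizontal axis), 1 point per library, with the mean and SD in grey beside them. The 1932 nt transcript varies from 5.05 to 165 CPM among the DMBA libraries, and the 413 nt transcript lies under 0.5 CPM in all 9.

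Among the 5 members with the most reads in UT WT, the 3439 nt transcript fell deepest. It had 276, 352 and 334 CPM in UT WT, 0.900, 1.28 and 1.76 in WT DMBA, 3.69, 2.37 and 1.38 in Tcrb-/- DMBA and 2.89, 4.40 and 2.83 in Tcrb-/- + Treg DMBA. It fell 244-, 129- and 95.0-fold in the 3 DMBA groups. Here WT DMBA was the lowest group, unlike in most members, and its libraries overlapped those of Tcrb-/- DMBA.

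The 2408 nt transcript showed a shallow fall, similar between group means but uneven among the WT DMBA libraries. Its CPM was 435, 342 and 391 in UT WT, 43.3, 105 and 111 in WT DMBA, 62.2, 89.4 and 75.05 in Tcrb-/- DMBA, and 68.9, 57.0 and 87.5 in Tcrb-/- + Treg DMBA. The falls of 4.503-, 5.15- and 5.47-fold were similar. The 3 DMBA groups overlapped throughout, which the last condition of the rule partly fixed.

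The 1207 nt transcript had 209, 280 and 143 CPM in UT WT, 20.5, 16.99 and 40.2 in WT DMBA, 10.4, 13.6 and 8.69 in Tcrb-/- DMBA, and 14.8, 22.8 and 20.4 in Tcrb-/- + Treg DMBA. All 3 libraries with Tregs lay above all 3 without, by 0.91 on the log2 scale with an SE of 0.34, which did not pass the test (edgeR, Benjamini-Hochberg adjusted p = 0.607).

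A pattern of another kind was seen in the 2051 nt transcript. Its CPM was 216, 181 and 210 in UT WT, but 40.0, 0 and 0 in WT DMBA, 0, 91.5 and 90.0 in Tcrb-/- DMBA, and 30.2, 76.9 and 83.0 in Tcrb-/- + Treg DMBA. Libraries of 1 group thus stood at 0 or near 90 CPM. The 2048 nt transcript with the next identifier number, which is not a member, had 0, 29.1 and 3.54 CPM in UT WT, 81.7, 126 and 129 in WT DMBA, 78.4, 0 and 0 in Tcrb-/- DMBA, and 51.2, 12.5 and 0 in Tcrb-/- + Treg DMBA. It was highest in the libraries where the member was low or at 0. The sum of the pair fell less than the member, from a mean of 213 CPM in UT WT to 125, 86.6 and 84.6 CPM in the 3 DMBA groups.

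Such estimates bear on how a member's fall can be read, since reads that match several transcripts are divided among them by the quantification. A transcript whose estimate is a whole number in every library (within 0.01 reads) shows no sign of divided reads. Of the 215 members 48 were of this kind (22.3%), beside 5.15% of the 30678 kept, 9.54% of the 2496 with no overlap and 9.57% of the 282 raised transcripts. The rule did not use this property directly. It did require low levels in all DMBA libraries, and an estimate of 0 is a whole number, so the property is not fully separate from the rule. The difference in shares was not tested. The other 167 had a fractional estimate in at least 1 library.

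The rule allowed no member at 0 in an untreated library. In the DMBA libraries 101 members were at 0 at least once, 84 of them with fractional estimates and 17 with whole-number ones. In 92 members 1 DMBA library stood at 0 while another kept at least 20% of the UT WT mean, a limit chosen after the values were seen. Of these 92, 78 had fractional estimates and 14 whole-number ones, where the members as a whole held 167 and 48. Neither the 101 nor the 92 was set beside a count over all transcripts kept. A fall to under 10% in all 9 DMBA libraries was rarer. It was seen in 9 members, 5 of them with whole-number estimates, of 3439, 413, 541, 2151, 9518, 2814, 768, 444 and 2757 nt.

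The members with the 5 largest smallest falls, after the 413 and 3439 nt transcripts, were those of 444, 768 and 541 nt. The 444 nt transcript had 7.08, 5.33 and 5.54 CPM in UT WT and a smallest fall of 35.9-fold. It had 16 reads in all DMBA libraries together, and 3 of those libraries stood at 0. The 768 nt transcript had a smallest fall of 35.5-fold, with 34.5 reads in all DMBA libraries together and 1 of them at 0. Both folds thus rest on few reads. The 541 nt transcript had 102, 82.5 and 94.0 CPM in UT WT, 0.527 to 5.34 CPM in the DMBA libraries and a smallest fall of 30.1-fold.

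Some transcripts next to a member by identifier number were lower with DMBA too. What the order of the numbers stands for is not stated in the sources used here. Of the members, 31 stood in 17 pairs with consecutive numbers, such as the 2408 nt transcript and the 1696 nt transcript after it. Such pairs were not counted among the other transcripts kept. Of 144 other kept transcripts next to a member, 75 (52.1%) had a lower mean in all 3 DMBA groups than in UT WT, beside 35.9% of all kept transcripts that are not members. A higher mean in all 3 was seen in 25 (17.4%, beside 26.9%). These shares were not tested.

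When a member was summed with both neighbours by number, the fall of at least 3-fold in each DMBA group held for 112 of the 215. It was lost for 103, and in 18 of the 215 the sum was higher than in UT WT in at least 1 DMBA group. Where the neighbours had few reads or were members too, the fall could hardly be lost, and the 112 were not divided by this. The neighbours of the 413 nt transcript lay between 0 and 0.05 CPM, so its fall was the same with them. The 3439 nt transcript was followed by a 5296 nt transcript at 145 to 204 CPM in UT WT, 158 to 207 in WT DMBA, 198 to 321 in Tcrb-/- DMBA and 237 to 505 in Tcrb-/- + Treg DMBA. Their sum went from 494 CPM in UT WT to 185, 272 and 364 CPM in the DMBA groups, a smaller change than that of the member. The 541 nt transcript followed a 678 nt transcript that had 158 to 178 CPM in UT WT, 272 to 302 in WT DMBA, 185 to 201 in Tcrb-/- DMBA and 93.7 to 123 in Tcrb-/- + Treg DMBA. The 768 nt transcript was followed by a 1784 nt transcript at 60.4 to 79.8 CPM in all 12 libraries, which did not share its fall.

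Against UT WT, edgeR called 15 members lower in WT DMBA (0.0697% of all transcripts tested were called lower), 41 in Tcrb-/- DMBA (0.446%) and 43 in Tcrb-/- + Treg DMBA (0.898%), at an adjusted p under 0.01 and a change over 2-fold. DESeq2 called 82, 123 and 124 lower (1.08%, 2.44% and 4.7% of all with an adjusted p). The rule used these contrasts, and nothing is read from the counts. They also moved with single libraries. Without UT WT replicate 1, 2 or 3, 4, 1 and 3 members were called in WT DMBA, 13, 13 and 14 in Tcrb-/- DMBA and 20, 18 and 21 in Tcrb-/- + Treg DMBA. Without replicate 1, 2 or 3 of the DMBA group itself, the counts were 6, 1 and 2, then 17, 17 and 16, then 12, 37 and 38. The share of all transcripts called in these smaller fits was not set beside the counts. Whether the drop is particular to the members is thus not known.

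Levels in the Tcrb-/- groups against WT DMBA are given as a description, since the rule chose the members on the means of all 3 DMBA groups. The fitted log2 fold change of Tcrb-/- DMBA against WT DMBA was above 0 in 54 members (25.1%, beside 47.2% of all transcripts tested), with a median of -0.51. For Tcrb-/- + Treg DMBA against WT DMBA it was above 0 in 60 (27.9%, beside 47.8%), with a median of -0.56. These contrasts share the WT DMBA libraries, and the last condition of the rule compared Tcrb-/- with wild type libraries directly, so nothing is read from these shares. The edgeR test called 0 members in either contrast, where it called 0.0% of all transcripts tested higher and 0.00367% lower in the first, and 0.0477% higher and 0.348% lower in the second. At an unadjusted p under 0.05 it had 2 higher and 29 lower in the first (3.69% and 3.01% of all tested) and 5 higher and 22 lower in the second (7.39% and 6.58%), and DESeq2 called 0 higher and 3 lower (0.758% and 0.44%), then 1 higher and 8 lower (1.79% and 4.33%). The 3 WT DMBA libraries were unequal in these members: the highest WT DMBA value was in replicate 1 for 112 members (52.1%, beside 43.1% of the transcripts kept), in replicate 3 for 81 (37.7%, beside 30.9%) and in replicate 2 for 22 (10.2%, beside 26.0%).

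Whether Tregs changed the level of these transcripts in skin without other αβ T cells was the contrast that no condition of the rule compared directly. The rule still held every library of both groups under the lowest UT WT library, and both means at least 3-fold under UT WT. A transcript that rose past these limits with Tregs could not be a member, so the contrast covers only changes within them. The median of the fitted log2 fold changes of Tcrb-/- + Treg DMBA against Tcrb-/- DMBA was 0.14 (quartiles -0.54 and 0.83), beside 0.00 for all transcripts tested. It was above 0 in 118 of 215 members (54.9%, beside 49.9%). The median moved with single libraries: it was 0.40 without Tcrb-/- DMBA replicate 2, 0.063 without replicate 3, 0.024 without Treg replicate 2 and -0.023 without Treg replicate 3. Its sign thus changed with 1 library. Tcrb-/- DMBA replicate 2 had the highest value of its group in 112 members (52.1%, beside 36% of the transcripts kept). Single members moved either way by far more than the median.

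None of these differences passed the test in edgeR, which called 0 members higher and 0 lower (0.00367% and 0.011% of all transcripts tested). At an unadjusted p under 0.05 there were 14 higher (6.51% of members, beside 2.88% of all) and 10 lower (4.65%, beside 4.09%). The lowest level with Tregs exceeded the highest without in 8 members (3.72%, beside 4.22% of the transcripts kept), and the reverse held in 11 (5.12%, beside 10.1%). DESeq2 called 0 higher (0.332%) and 5 lower, or 2.35% of the 213 members with an adjusted p, beside 1.86% of all with one. A share of 2.35% is near that background.

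The 5 members that DESeq2 called lower with Tregs are described because of that call, after their values were seen. The 2458 nt transcript had 8.18, 10.4 and 6.43 CPM in Tcrb-/- DMBA and 0.520, 1.66 and 1.52 CPM with Tregs. Its log2 fold change in edgeR was -2.69 with an SE of 0.43 (Benjamini-Hochberg adjusted p = 0.0492), and it was the 1 member under 0.05. The 1021 nt transcript had 6.82, 12.4 and 10.2 CPM without and 1.19, 2.76 and 3.51 CPM with Tregs, a log2 fold change of -1.89 with an SE of 0.36 (edgeR, adjusted p = 0.0834). The groups did not overlap in either.

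The 1439 nt transcript had 3.09, 4.87 and 4.48 CPM without and 1.04, 1.20 and 1.76 CPM with Tregs. The remaining 2, with whole-number estimates, were low in all DMBA libraries. The 3491 nt transcript had 1.73, 1.87 and 1.27 CPM without and 0.216, 0.400 and 0.244 CPM with Tregs, and the 2054 nt transcript 0.5001, 1.43 and 1.93 CPM without and 0.173, 0.200 and 0.293 CPM with Tregs. Their adjusted p in edgeR was 0.0818, 0.185 and 0.113 in that order. Leaving out each of the 6 libraries in turn, DESeq2 called 3 to 10 members lower with Tregs (1.41% to 4.69%, beside 1.11% to 3.33% of all transcripts with an adjusted p in the same fits) and 0 to 2 higher (0% to 0.939%, beside 0.176% to 0.873%). Between 3 and 5 of the calls were among the 5. Without Treg replicate 2 it called 10 lower and 2 higher (3.33% and 0.212% of all), and without Treg replicate 3 it called 8 lower and 1 higher (1.85% and 0.292%).

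**Figure D4:**
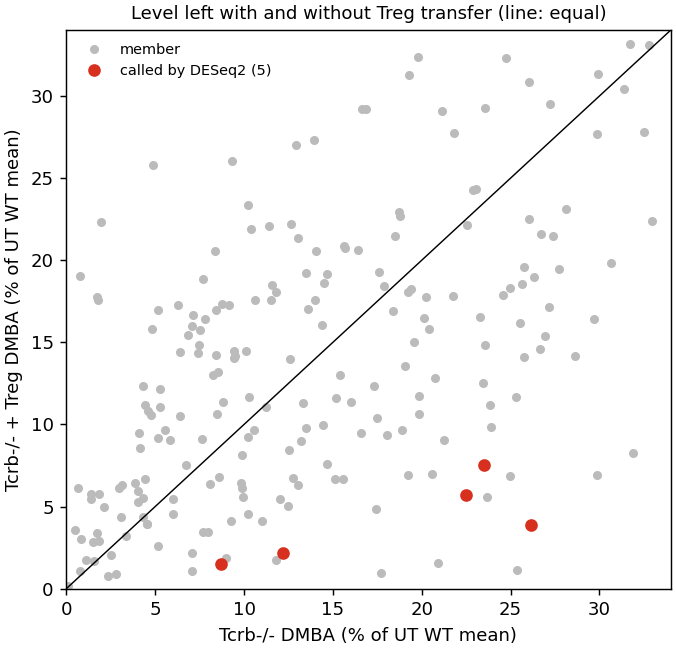
Level left in Tcrb-/- DMBA (horizontal axis) against Tcrb-/- + Treg DMBA (vertical axis), each as a percentage of the UT WT mean CPM, 1 point per transcript from group means of 3 libraries. The line marks equal levels, points lie on both sides of it, and the 5 transcripts called lower with Tregs by DESeq2 are in red.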

How the data were processed

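Poly(A) RNA of whole back skin was sequenced in 12 libraries. The authors quantified the reads with Salmon 1.5.2 against FVB/NJ transcripts and deposited, per library and transcript, an estimated count, a TPM value and lengths. Estimated counts were divided by the library's sum to give CPM. For tests they were rounded, and transcripts with at least 10 reads in all (54539) were fitted with edgeR 4.0.16 (TMM, quasi-likelihood F test, 4 groups, Benjamini-Hochberg adjustment over all transcripts), and called at an adjusted p under 0.01 and over 2-fold. DESeq2 1.42.0, other scalings and filters, and each library left out in turn were alternatives. DESeq2 left 2 members without an adjusted p. Members and lists were chosen with earlier results of these data known. Transcripts given are the 2 named by identifier (most reads in UT WT, over all members and over those with whole-number estimates), the 5 with most reads in UT WT, the 5 with the largest smallest fold and the 3 on either side of the minimum. Replicate libraries differed beyond sampling noise. Limits from a count of 0 cover counting error only.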

Additional observations from a re-analysis of the deposited data

How the results depend on the processing

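The number of members was 195 with TMM scaling, 203 with DESeq2 size factors, 244 from TPM and 277 at a mean CPM of 0.1, with 182 to 197 of the 215 kept by each of TMM, size factors and TPM. It was 76 at a mean CPM of 5, 506 and 126 at fold minimums of 2 and 4, and 48 among whole-number transcripts, each by construction of the condition. Leaving out 1 library gave 158 to 287. The summed level in Tcrb-/- DMBA was 526 on the TPM scale. For Tcrb-/- + Treg DMBA against Tcrb-/- DMBA, 5 members were called by DESeq2, 1 at an adjusted p under 0.05 with no fold minimum in edgeR, and 0 to 0 with 1 library left out, and the median log2 fold change was then -0.023 to 0.40. For the Tcrb-/- groups against WT DMBA, DESeq2 called 3 and 9 members, and library totals called 1 in the group with Tregs. Against UT WT, DESeq2 called 82, 123 and 124 members in the DMBA groups (wild type, Tcrb-/-, and Tcrb-/- with Tregs), and edgeR with 1 library left out 1 to 6, 13 to 17 and 12 to 38. The cause was not tested. With library totals the median of all transcripts moved to -0.18 in Tcrb-/- + Treg DMBA against UT WT and to -0.16 against WT DMBA, and the members' medians to -3.00 and -0.75. For Tcrb-/- + Treg DMBA against Tcrb-/- DMBA, the 1 contrast in which they were rerun, neither named transcript passed the test under any of 13 alternatives.

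No pairing of the libraries by replicate number was detected, which does not exclude one. Deviations of 18 same-numbered pairs correlated at -0.033 to 0.047, and 4 of 12 libraries correlated best with their own number. With a replicate block the counts against UT WT were 2, 17 and 32, and 0 in each contrast among the DMBA groups, with a median of 0.14 for Treg transfer. For edgeR counts with the block, with library totals or with a library left out, no share of all transcripts called was set beside them. Changes in these counts are thus not read as particular to the members.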
